A study of Homo sapiens with 4 samples.

Results

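The genes described here are 10 genes of the smooth muscle contractile programme in Hs578T cells: the smooth muscle actins ACTA2 and ACTG2, the actin-binding proteins TAGLN, CNN1 and CALD1, the tropomyosins TPM1 and TPM2, the myosin light chain MYL9, its kinase MYLK, and the transcription factor SRF. They were chosen by gene symbol, all 10 were found among the 60664 genes of the deposited table, and all 10 passed the filter on low counts that left 16544 genes for testing. Hs578T is an established line from a human breast carcinoma, triple-negative and mesenchymal in character. RNA was sequenced from 2 libraries of cells of the empty group, which the deposited table names FLAG, and from 2 libraries of TFCP2L1 overexpression, a CP2-family transcription factor; both groups are of the same line. The promoter of the overexpression construct, the number of clones and the duration of expression are not stated in the labels. The comparison asks which transcripts differed between overexpressing and empty cells.

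Contractile cells pull on actin filaments with myosin II. Calcium bound to calmodulin activates myosin light chain kinase, which phosphorylates the regulatory light chain and switches the motor on, while tropomyosin, calponin and caldesmon lie along the actin filament and modulate the motor's access to it. SRF binds a DNA element called the CArG box in the promoters of these genes, with myocardin-family coactivators that sense actin (MRTFA and MRTFB) or with ternary complex factors of the ETS family. In breast tissue this programme belongs to myoepithelial cells and vascular smooth muscle, and parts of it are also used by myofibroblasts and by mesenchymal tumour cells.

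The libraries held 18960674 to 26355502 estimated counts. TFCP2L1 itself was at 0.08 and 0.15 TPM (a level scaled by transcript length and library depth) in the empty libraries against 43.2 and 40.94 in the overexpressing ones, so all 4 libraries went with their labels. The line's mesenchymal marker VIM was at 4415 to 5746 CPM (counts scaled to library depth). All 4 mesenchymal markers checked were called at an edgeR adjusted p under 0.05. With TFCP2L1, VIM and CDH2 were higher (log2 fold change 0.27 and 0.47) and FN1 and ZEB1 lower (-0.32 and -0.54). Without empty replicate 1 the value of VIM was 0.22. In a limma fit to log2(TPM + 1) with no filter on low levels, only 1 of these markers was called, ZEB1. The epithelial markers CDH1 and EPCAM stayed at or below 0.472 CPM, ESR1 at or below 0.839 CPM and PGR had no count. GATA3, a luminal factor also listed as low in this line, was at 9.70 and 9.88 CPM in empty and 10.5 and 13.8 CPM in overexpressing cells (edgeR adjusted p = 0.0933, and 0.00702 without overexpression replicate 1). Separate cultures are not stated for the libraries of a group, so p-values reflect only library-to-library spread, possibly technical. No batch is labelled, and a batch that coincides with the group cannot be told apart from it. Nor can, in bulk RNA, a change in the share of cells that express a gene and a change in RNA per cell.

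The promoter sequences of the genes are shown first because the CArG box links them to SRF. Of the 10 genes, 8 matched the RefSeq promoter table (GRCh38.p14), with 14 windows of 300 bases that reach from 250 bases before a transcript start to 50 after it; TAGLN and MYL9 did not match. A CArG box was searched as a pair of C bases, a core of 6 bases that are A or T, and a pair of G bases, a pattern that reads the same on both strands. Such a box lay in 3 of the 14 windows, those of ACTG2, MYLK and SRF, against 1.29% of all 35116 windows of the table. With 1 C or G allowed in the core the count was 5 of 14, adding ACTA2 and CALD1, against 8.13% of all windows. In the 4 windows printed here, 5′ to 3′ on the gene's strand, capitals mark each box of either form.

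ACTA2, chr10:88952724-88953023, minus strand: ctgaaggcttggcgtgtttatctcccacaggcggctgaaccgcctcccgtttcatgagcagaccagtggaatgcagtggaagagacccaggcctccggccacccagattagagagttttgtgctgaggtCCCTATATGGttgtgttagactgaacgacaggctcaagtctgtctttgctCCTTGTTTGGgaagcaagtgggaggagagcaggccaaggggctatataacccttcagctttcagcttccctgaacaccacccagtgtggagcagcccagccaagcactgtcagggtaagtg
ACTG2, chr2:73892758-73893057, plus strand: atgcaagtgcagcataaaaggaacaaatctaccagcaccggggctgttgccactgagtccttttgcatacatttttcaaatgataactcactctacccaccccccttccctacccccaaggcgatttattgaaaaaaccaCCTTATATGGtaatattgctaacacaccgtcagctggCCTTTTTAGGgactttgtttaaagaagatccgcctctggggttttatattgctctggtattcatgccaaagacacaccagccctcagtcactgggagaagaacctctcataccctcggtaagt
MYLK, chr3:123620499-123620798, minus strand: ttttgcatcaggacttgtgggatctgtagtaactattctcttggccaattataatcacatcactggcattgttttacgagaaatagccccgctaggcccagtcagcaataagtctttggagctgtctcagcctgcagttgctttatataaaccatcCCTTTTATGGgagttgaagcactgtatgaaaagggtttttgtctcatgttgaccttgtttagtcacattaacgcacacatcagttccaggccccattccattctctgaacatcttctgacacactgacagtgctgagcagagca
SRF, chr6:43171019-43171318, plus strand: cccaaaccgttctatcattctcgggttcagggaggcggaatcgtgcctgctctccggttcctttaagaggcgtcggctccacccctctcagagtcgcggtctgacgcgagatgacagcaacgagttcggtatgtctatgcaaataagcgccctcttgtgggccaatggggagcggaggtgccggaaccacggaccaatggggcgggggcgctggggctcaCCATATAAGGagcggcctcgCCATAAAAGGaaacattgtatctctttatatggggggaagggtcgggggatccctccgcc

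The ACTA2 window holds CCCTATATGG and CCTTGTTTGG, each with 1 C or G in the core, which begin 121 and 71 bases before the transcript start. ACTG2 has CCTTATATGG and CCTTTTTAGG at 110 and 73 bases, and SRF has CCATATAAGG and CCATAAAAGG at 30 and 10 bases. The MYLK window, with CCTTTTATGG at 94 bases, belongs to a start inside the gene near its 3′ end. Of these 4 genes, ACTA2 and ACTG2 rose with TFCP2L1 and MYLK and SRF did not pass the test, as described next, so a box was found in windows of genes of both kinds. Sites for the overexpressed factor were searched as a pair of CCAG half-sites 6 bases apart, on both strands, of the kind that CP2 proteins bind. This pattern lay in 0 of the 14 windows and in 4.04% of all windows, which says only that these letters are not in these windows.

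With TFCP2L1 the 2 smooth muscle actins rose several-fold, TAGLN, MYL9 and TPM2 rose by smaller amounts, and the other 5 genes did not pass the test. The count is 5 of 10 higher and 0 lower at an edgeR quasi-likelihood adjusted p under 0.05, where 47.5% of all tested genes were called, 23.5% as higher and 23.9% as lower. ACTA2 and ACTG2 alone rose by at least 1 on the log2 scale, as did 4.76% of all tested genes. Both libraries of a group lay on one side of both libraries of the other for 8 of the 10 genes, against 73.7% of all tested genes, and the overexpressing libraries were the higher ones for 5, against 36.7%. The median log2 fold change, given throughout as overexpression over empty, was 0.21 over the 10 genes and -0.002 over all tested genes. The genes' mean levels in overexpressing cells spanned from 0.915 TPM for CNN1 to 695 TPM for TPM2.

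**Figure D1:**
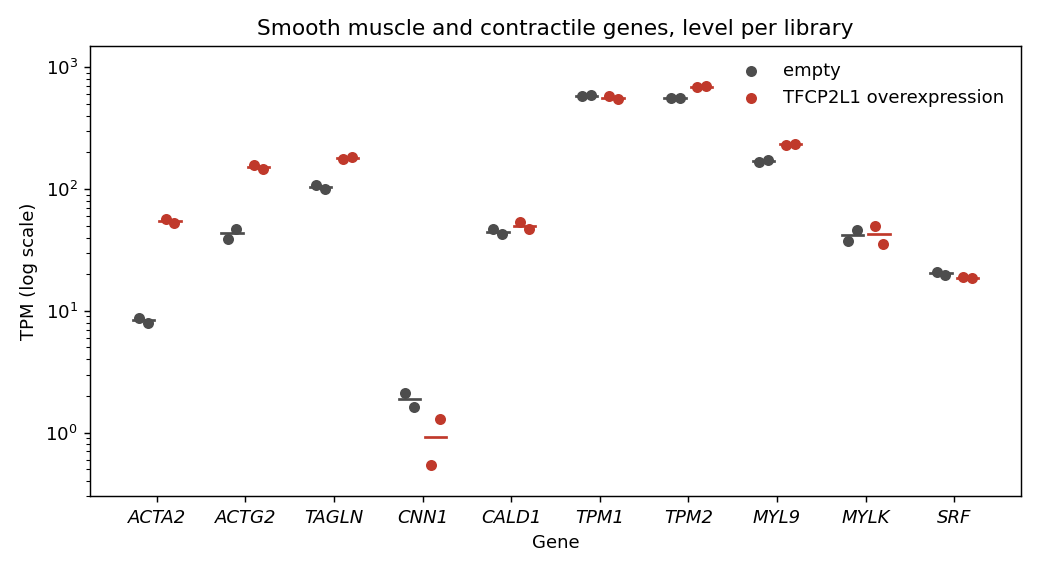
Level of each of the 10 genes in TPM on a log axis, with 1 point per library (grey, empty; red, TFCP2L1 overexpression) and a bar at each group's mean of 2 libraries. ACTA2 and ACTG2 show the widest gap between the groups, while the points of CALD1 and MYLK overlap.

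ACTA2 (ENSG00000107796; GRCh38, chromosome 10, 88935074 to 88991339, minus strand), the actin of vascular smooth muscle and of myofibroblasts, measured 8.75 and 7.93 TPM in empty cells and 56.65 and 52.34 TPM with TFCP2L1. In depth-scaled counts this was 6.69 ± 0.493 against 44.9 ± 0.935 CPM (mean ± SD, n = 2 each), a log2 fold change of 2.74 (SE 0.10, 95% interval 2.52 to 2.97; edgeR adjusted p = 5.79e-11). ACTG2 (ENSG00000163017; chromosome 2, 73892314 to 73919865, plus strand), the actin of visceral smooth muscle, stood at 39.15 and 47.4 TPM in empty cells and at 156.92 and 146.25 TPM with TFCP2L1. Its log2 fold change was 1.88 (SE 0.08, 95% interval 1.71 to 2.05; edgeR adjusted p = 1.77e-10). The groups did not overlap for either gene. Their intervals did not overlap each other, but the difference between the 2 changes was not tested.

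Both genes remained minor actins. By TPM, which allows levels of different genes to be compared, ACTA2 and ACTG2 together made up 0.586% and 0.642% of the summed TPM of the 6 actin genes in empty cells and 2.32% and 2.14% with TFCP2L1. ACTB and ACTG1, the cytoplasmic actins of all cells, held the rest almost entirely. ACTB rose, from 4346.92 and 4580.54 TPM to 5364.89 and 5478.57 TPM (log2 fold change 0.31, SE 0.06, edgeR adjusted p = 0.000689), while ACTG1 had a log2 fold change of -0.09 (edgeR adjusted p = 0.211; -0.12 with adjusted p = 0.0469 without overexpression replicate 2), and ACTB's share of the summed actin TPM went from 53.2% in both empty libraries to 58.2% and 59.1%. ACTC1, the cardiac actin, stayed between 1.6 and 2.1 TPM, and ACTA1, the skeletal one, had at most 4.98 estimated counts in a library. The 6 actins are closely related in sequence, so reads may be hard to divide among them. Estimated counts of ACTG2 were whole numbers in each library (686, 629, 2660 and 3089), while those of ACTA2 and ACTB were fractional. The division of reads was not tested. The sum of the 6 actins does not depend on that division. It was 9520 and 10059 CPM in empty and 10369 and 11180 CPM with TFCP2L1. Its log2 fold change of 0.14 missed the threshold (95% interval 0.02 to 0.26, edgeR adjusted p = 0.0588). Without overexpression replicate 1 the sum was called (0.20, edgeR adjusted p = 0.000476).

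**Figure D2:**
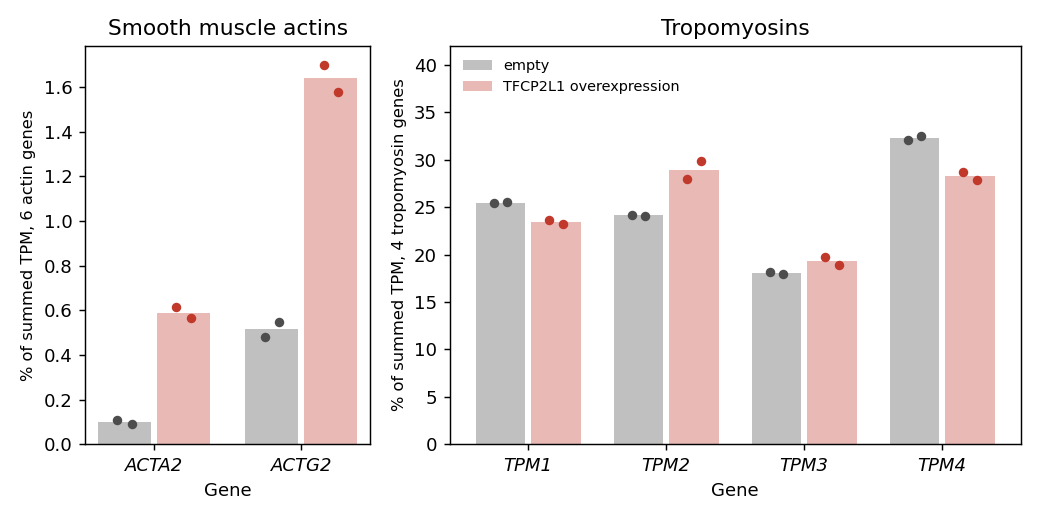
Share of the smooth muscle actins in the summed TPM of the 6 actin genes (left) and of each tropomyosin in the summed TPM of the 4 tropomyosin genes (right), in percent; bars are means of 2 libraries and points are the libraries. ACTA2 and ACTG2 together go from at most 0.642% to at least 2.14%, and TPM2 passes TPM1.

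Reads may also come from a gene on the opposite strand, since no source used here says whether counting took account of strand. In the GENCODE release 29 annotation FAS, a death receptor gene, shares 380 exonic bases with ACTA2 on the other strand. FAS had 83.58 and 55.99 estimated counts in empty and 320.78 and 329.96 in overexpressing cells and rose with a fitted log2 fold change of 1.98 (edgeR adjusted p = 2.19e-07). The antisense gene ACTA2-AS1 had at most 8.2 estimated counts in any library. How many reads of the ACTA2 value come from the shared bases was not tested.

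Among the proteins that coat the actin filament, TAGLN and TPM2 rose, and TPM1, CALD1 and CNN1 did not pass the test. TAGLN (ENSG00000149591; chromosome 11, 117199321 to 117204782, plus strand) encodes transgelin, an actin-bundling protein used as an early smooth muscle marker. It measured 107.91 and 99.57 TPM in empty and 175.67 and 184.52 TPM in overexpressing cells, with no overlap. The log2 fold change was 0.62 (SE 0.07, 95% interval 0.47 to 0.76; edgeR adjusted p = 3.42e-06).

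TPM1 (ENSG00000140416; chromosome 15, 63042632 to 63071915, plus strand) and TPM2 (ENSG00000198467; chromosome 9, 35681992 to 35690121, minus strand) encode tropomyosins, coiled coils that lie end to end along the filament. They were the most abundant of the 10 genes. TPM2 went from 555.2 and 558.15 TPM in empty cells to 685.48 and 705.19 TPM with TFCP2L1 (log2 fold change 0.34, SE 0.06, 95% interval 0.22 to 0.47; edgeR adjusted p = 0.000207). TPM1 was at 582.73 and 590.29 TPM in empty and at 579.02 and 547.64 TPM in overexpressing cells, and its log2 fold change of -0.07 missed the threshold (95% interval -0.18 to 0.04, edgeR adjusted p = 0.301). By TPM, TPM2 thus stood below TPM1 in both empty libraries and above it in both overexpressing ones. As for the actins, the division of reads among the tropomyosin genes was not tested. Estimated counts of TPM2 were whole numbers in each library (8636, 7064, 10799 and 12868), while those of TPM1 were fractional.

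The other 2 tropomyosin genes, TPM3 and TPM4, which are used by most cells, had log2 fold changes of 0.13 and -0.13 (edgeR adjusted p = 0.0548 and 0.0555). Both lay close to the threshold: in 6 of the other settings each, DESeq2 (adjusted p = 0.0482 and 0.0348) and limma-voom (0.0441 and 0.035) among them, TPM3 was called higher and TPM4 lower. Without overexpression replicate 1 both were called (0.0108 and 0.0208), and without overexpression replicate 2 TPM3 was (0.0293). Over the 4 genes the sum of counts was level, at 2731 and 2756 CPM in empty and 2748 and 2774 CPM in overexpressing cells. Its log2 fold change was 0.01 (95% interval -0.10 to 0.12, edgeR adjusted p = 0.901), with a slightly negative value, -0.02, under upper-quartile scaling. Within that sum, TPM2 had 24.2% and 24.1% of the summed TPM in empty and 28.0% and 29.9% in overexpressing cells, and TPM4 32.1% and 32.5% against 28.7% and 27.9%.

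CALD1 (ENSG00000122786; chromosome 7, 134744252 to 134970728, plus strand), caldesmon, which holds back the actin-activated motor, was at 46.84 and 42.62 TPM in empty and 53.2 and 46.66 TPM in overexpressing cells. The lowest overexpressing value lay just below the highest empty one, and the log2 fold change was 0.08 (95% interval -0.08 to 0.24, edgeR adjusted p = 0.432). That value rested on single libraries: it was 0.19 (edgeR adjusted p = 0.00834) without overexpression replicate 2 and -0.04 without overexpression replicate 1.

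CNN1 (ENSG00000130176; chromosome 19, 11538717 to 11550323, plus strand), calponin of differentiated smooth muscle, was the lowest of the 10, with 2.12 and 1.62 TPM in empty and 0.54 and 1.29 TPM in overexpressing cells. These values rest on 48, 27, 12 and 34 counts. Both overexpressing libraries lay below both empty ones, but the log2 fold change of -0.94 had an SE of 0.41 and missed the threshold after adjustment (95% interval -1.83 to -0.06, edgeR adjusted p = 0.0746). CNN1 passed it without overexpression replicate 2 (-1.79, edgeR adjusted p = 0.00506) and without empty replicate 2 (-1.17, edgeR adjusted p = 0.0445).

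MYL9 (ENSG00000101335; chromosome 20, 36541484 to 36551447, plus strand), the regulatory light chain that the kinase phosphorylates, rose from 167.61 and 173.96 TPM to 229.86 and 235.29 TPM. Its log2 fold change was 0.44 (SE 0.06, 95% interval 0.32 to 0.57; edgeR adjusted p = 2.84e-05), and the groups did not overlap. MYLK (ENSG00000065534; chromosome 3, 123610049 to 123884331, minus strand), the kinase itself, was at 37.57 and 46.42 TPM in empty and 49.94 and 35.54 TPM in overexpressing cells. Those groups overlapped fully, and the log2 fold change was -0.02 (95% interval -0.19 to 0.14, edgeR adjusted p = 0.82). Without overexpression replicate 1 MYLK was called lower (-0.14, edgeR adjusted p = 0.0356), and without overexpression replicate 2 the value was 0.10.

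SRF (ENSG00000112658; chromosome 6, 43171299 to 43181507, plus strand) measured 20.92 and 19.63 TPM in empty and 18.97 and 18.57 TPM in overexpressing cells. Both overexpressing libraries were slightly below both empty ones, and the log2 fold change of -0.10 missed the threshold (95% interval -0.26 to 0.06, edgeR adjusted p = 0.283). A fall to below 0.835-fold or a rise to above 1.04-fold lay outside that interval. The mRNA level of SRF says nothing of the protein's activity.

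**Figure D3:**
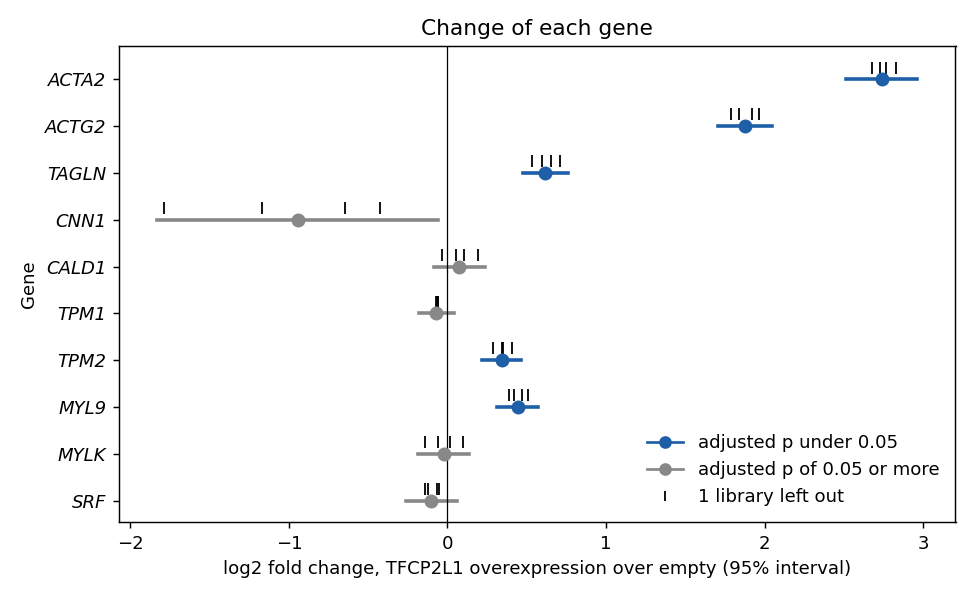
Log2 fold change of each gene with its 95% interval (edgeR), blue where the adjusted p was under 0.05; black ticks are the values with 1 library left out. The 5 called genes lie to the right of 0 in every refit, and CNN1 has the widest interval, -1.83 to -0.06.

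By mean TPM over the 2 libraries of a group, ACTA2 moved from rank 9 of the 10 genes in empty cells to rank 6 with TFCP2L1, and ACTG2 from rank 6 to rank 5. TPM1, TPM2, MYL9 and TAGLN held the top 4 ranks in both groups, and CNN1 rank 10. In empty cells CALD1, ACTG2 and MYLK were neighbours in this order whose libraries overlapped, and in overexpressing cells ACTA2 overlapped CALD1 and CALD1 overlapped MYLK. In the authors' deposited table, made from these counts, the log2 fold change was 2.76 for ACTA2, 1.89 for ACTG2, 0.63 for TAGLN, 0.46 for MYL9 and 0.36 for TPM2. That deposited table gives an adjusted p of 0.33 for CNN1 and of 0.492 or more for TPM1, CALD1, MYLK and SRF.

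The 5 genes whose profile over the 4 libraries lay nearest to that of ACTA2, among 10126 tested genes of at least 5 CPM in a group, were MEGF6, PAK6, S100A2, CDK15 and MEST. Nearness was the Euclidean distance between log2 CPM centred on each gene's mean, and ran from 0.111 to 0.191. Their log2 fold changes were 2.79, 2.85, 2.61, 2.88 and 2.60. With 4 libraries in 2 groups this measure mainly ranks genes by the size of their change.

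Genes of proteins that regulate SRF were called in both directions, as genes were across the whole table. Of 8 tested cofactors 3 were higher and 2 lower, where 23.5% of all tested genes were called higher and 23.9% lower. Those shares are the background for every list count below. MRTFB, an actin-sensing coactivator, fell from 51.5 ± 0.0377 to 29.2 ± 4.49 CPM and ELK3, a ternary complex factor, from 90.9 ± 2.33 to 51.1 ± 1.17 CPM, with log2 fold changes of -0.82 and -0.83 (edgeR adjusted p = 9.28e-06 and 2.59e-07). The ternary complex factors ELK1 and ELK4 rose by 0.40 and 0.32 on the log2 scale (edgeR adjusted p = 0.00402 and 0.00715), both calls being lost without empty replicate 1 (adjusted p = 0.0651 and 0.0545). MRTFA was called at 0.26 (edgeR adjusted p = 0.0115), but not without empty replicate 1 (adjusted p = 0.0625) or empty replicate 2 (0.0948), and fits to log2(TPM + 1) gave -0.03. Without empty replicate 1 none of the 8 cofactors was called higher and the same number, 2, lower. MYOCD, the myocardin of smooth and cardiac muscle, was at 17.2 and 13.5 CPM in empty and 17.4 and 14.2 CPM in overexpressing cells and did not pass the test (edgeR adjusted p = 0.858).

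Of 13 other genes known as targets of SRF with MRTF, 5 were higher and 5 lower, with a median log2 fold change of -0.09. That is 76.9% called, against 47.5% of all tested genes. ANKRD1, a cardiac and YAP-responsive repeat protein, rose by 1.72 on the log2 scale (edgeR adjusted p = 1.89e-08), and CCN2 from 75.6 ± 3.91 to 120.4 ± 0.583 CPM. FHL1, a LIM protein of muscle, fell from 344 ± 6.59 to 129 ± 0.294 CPM and CCN1 from 488 ± 14.7 to 264 ± 0.457 CPM. CCN1 and CCN2, related matricellular proteins, therefore moved in opposite directions (log2 fold changes -0.89 and 0.67). Targets of SRF with ternary complex factors had 3 of 7 tested genes higher and 1 lower: EGR1 rose from 8.92 ± 0.47 to 16.3 ± 0.354 CPM, MCL1 and NR4A1 by 0.35 and 0.55 on the log2 scale, and IER2 fell from 82.9 ± 2.13 to 45.7 ± 3.25 CPM. The call of NR4A1 was lost with DESeq2 (adjusted p = 0.0941), without empty replicate 1 (0.08) and without overexpression replicate 2 (0.0838).

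In the related filament proteins 2 of 5 tested genes rose and 0 fell, a count that became 3 higher and 1 lower, with TPM3 and TPM4, under DESeq2, limma-voom, library size alone and without overexpression replicate 1. It was 1 higher without either empty library and 3 higher without overexpression replicate 2. CNN2, the calponin of non-muscle cells, rose from 117 ± 6.28 to 205 ± 6.26 CPM (edgeR adjusted p = 9.61e-08). Its relative CNN1 had a negative value but did not pass the test. TAGLN2 rose by 0.18 on the log2 scale (edgeR adjusted p = 0.0163), a call lost when either empty library was left out (adjusted p = 0.177 and 0.0963). Of the myosin II genes 4 of 8 rose and 2 fell, but 2 and 1 without empty replicate 1. The non-muscle heavy chain MYH9 went from 2227 ± 187 to 2653 ± 47.5 CPM, a call lost without empty replicate 1 (adjusted p = 0.148), and the light chains MYL6 and MYL12B rose by 0.26 on the log2 scale each. MYH10, the other main non-muscle heavy chain, fell from 37.9 ± 0.314 to 9.64 ± 0.289 CPM (log2 fold change -1.97, edgeR adjusted p = 9.83e-10). The filament list had 40% of its tested genes called and the myosin II list 75%, against 47.5% of all tested genes.

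Genes that control light chain phosphorylation had 6 of 20 tested members higher and 8 lower, with a median log2 fold change of -0.08. That is 70% called, against 47.5% of all tested genes. The lower calls were 5 with DESeq2 and without either empty library. RHOB, a small GTPase, fell from 256 ± 5.88 to 187 ± 0.157 CPM. RHOA, ROCK2 and PPP1R12B did not pass the test, with log2 fold changes of -0.11, 0.09 and 0.01, though RHOA and ROCK2 were called without overexpression replicate 2 (adjusted p = 0.0209 and 0.0198). PPP1R14A, an inhibitor of the light chain phosphatase in smooth muscle, had no count in any library.

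Stress fibre and focal adhesion genes had 4 of 18 members higher and 7 lower, and a median of 0.004. That is 61.1% called, against 47.5% of all tested genes. The lower calls were 4 without empty replicate 2, without overexpression replicate 2 and at an adjusted p under 0.01. ACTN1, an actin cross-linker, rose from 820 ± 18 to 1056 ± 20.2 CPM, while VCL, which ties actin to adhesions, fell from 594 ± 7.93 to 410 ± 30.6 CPM, PDLIM1 from 147 ± 6.45 to 90.4 ± 0.183 CPM and LIMA1 from 267 ± 9.74 to 173 ± 10.3 CPM. Genes of actin monomer and filament turnover had 5 of 16 higher and 5 lower, the latter 3 without empty replicate 1 and 2 without empty replicate 2. In the main fit 62.5% of this turnover list was called. TMSB4X, which sequesters actin monomers, fell from 2355 ± 10.2 to 1092 ± 70.3 CPM (log2 fold change -1.11, edgeR adjusted p = 1.69e-09). LIMK1, the kinase that inactivates cofilin, rose from 43.8 ± 1.9 to 95.5 ± 2.92 CPM, PFN2, a profilin, from 181 ± 6.55 to 305 ± 2.5 CPM and DIAPH3, a formin, from 43.6 ± 2.64 to 71.1 ± 5.59 CPM.

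Of the TGF-beta inputs, which induce ACTA2 in fibroblasts, 3 of 11 rose and 2 fell. That is 45.5% called, close to the 47.5% of all tested genes. SMAD3, a signal transducer of the pathway, rose from 124 ± 8.33 to 250.2 ± 11.1 CPM, the receptor gene TGFBR2 from 44.4 ± 2.85 to 65.4 ± 4.11 CPM and the ligand gene TGFB3 from 6.46 ± 1.18 to 10.8 ± 0.384 CPM.

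**Figure D4:**
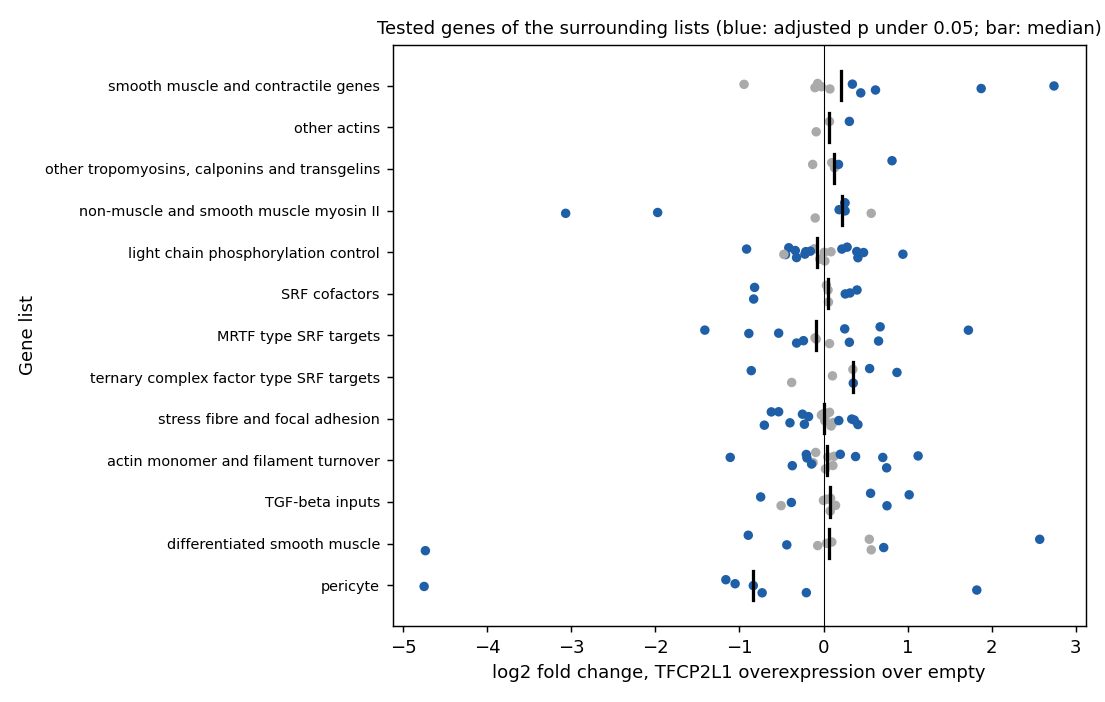
Log2 fold change of every tested gene in 13 lists, 1 point per gene (blue, edgeR adjusted p under 0.05; grey, not called) with a black bar at the list's median; the vertical spread within a row has no meaning. The points of most lists lie on both sides of 0, and those of the 10 genes in the top row have a median of 0.21.

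Markers of differentiated smooth muscle were mostly low. Of 14 genes 10 were tested, 2 higher and 3 lower, which is 50% called against 47.5% of all tested genes. The list's summed level was 145.2 and 150.8 CPM in empty and 148.3 and 143.4 CPM in overexpressing cells. SMTN held much of that sum and did not pass the test (edgeR adjusted p = 0.443). It was at 77.3 and 79.7 CPM in empty and 72.3 and 77.2 CPM in overexpressing cells. MYH11, the smooth muscle myosin heavy chain, was at 0.601 and 0.529 CPM in empty and 1.01 and 0.687 CPM in overexpressing cells and did not pass the test (edgeR adjusted p = 0.318). LMOD1, a leiomodin, rose from 0.479 ± 0.0702 to 2.86 ± 0.53 CPM and NEXN, an actin-binding protein, from 22.8 ± 1.79 to 37.5 ± 2.93 CPM. DES, desmin, fell from 5.99 ± 0.275 to 0.219 ± 0.0136 CPM and SYNM, synemin, from 35.1 ± 3.58 to 25.9 ± 2.8 CPM. PLN, CASQ2, ITGA8 and PDLIM3 were under the filter.

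Other cell types that carry contractile genes were examined beside this. In the myoepithelial list KRT14, TP63 and KRT6B were under the filter at no more than 0.472 CPM in any library, KRT5 rose from 0.342 ± 0.184 to 7.72 ± 1.66 CPM, and KRT17 fell from 2.65 ± 0.288 to 1.46 ± 0.0126 CPM, a call lost with DESeq2 (adjusted p = 0.13) and without empty replicate 2 (0.115) or either overexpressing library (0.0551 and 0.0619). The summed level of the myoepithelial list was 14.7 and 15.8 CPM in empty and 20.2 and 20.5 CPM in overexpressing cells. OXTR held much of that sum and did not pass the test (edgeR adjusted p = 0.714). It was at 11.03 and 12.21 CPM in empty and 12.04 and 10.15 CPM in overexpressing cells. In the striated muscle list MYOD1, MYOG and MYF5 had no count in any library, and the sum was 79.8 and 79.6 against 51.3 and 60.2 CPM, nearly all of it TNNT1, which fell (log2 fold change -0.53, edgeR adjusted p = 0.000102). MYH7, the slow and cardiac myosin heavy chain, rose from 0.122 ± 0.0514 to 1.11 ± 0.378 CPM (log2 fold change 3.17, edgeR adjusted p = 0.000563), on 2 and 3 counts against 20 and 36. Of the 7 tested pericyte markers 6 fell and 1 rose, where 23.9% of all tested genes were called lower and 23.5% higher. The lower calls were 2 in limma fits to log2(TPM + 1) and to log2(TPM + 0.1). NOTCH3 was not called in these limma fits (adjusted p = 0.0947 and 0.108). PDGFRB fell from 57.05 ± 0.851 to 27.6 ± 0.425 CPM, NOTCH3 from 18.1 ± 1.43 to 8.11 ± 0.617 CPM and ANPEP from 4.97 ± 0.00795 to 0.179 ± 0.0163 CPM. CSPG4 rose from 182 ± 11.8 to 645 ± 12.1 CPM and took the summed pericyte level from 569.9 and 591.7 to 962.6 and 942.7 CPM. The part of these markers in the ACTA2 and ACTG2 results was not tested.

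The ratio of estimated counts to TPM follows the mean length of the transcripts to which a gene's reads were assigned. It was divided by the deposited gene length and by its median over genes in each library, for 9456 tested genes of at least 5 TPM in all 4 libraries. TAGLN had the lowest ratio of overexpressing to empty cells among the 9 of the 10 genes that qualified. Its index was 1.55 and 1.60 without TFCP2L1 and 1.37 and 1.39 with it, a ratio of 0.874 that lies at the 4.41 percentile of all genes, whose range from the 5th to the 95th percentile was 0.879 to 1.12. The TAGLN counts therefore rose less than its TPM. For ACTA2 and ACTG2 the ratios were 1.02 and 1.03. MYLK, which has a long kinase transcript and a short internal one, varied as much within a group as between groups, at 0.785 and 0.664 without TFCP2L1 and 0.657 and 0.734 with it. The groups did not overlap for 5 of these 9 genes, against 38.4% of all genes.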

How the data were processed

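RNA-seq of 4 Hs578T libraries, 2 per group, was analysed from 1 deposited table; its columns were matched to samples by title, and groups come from the treatment label. The labels' protocols name Trizol for RNA extraction. Per the file headers, the authors deposited estimated counts per gene, not normalized, and TPM per library. The deposited workbook, named for DESeq2, also gives the authors' fold change (a ratio), log2 fold change and p-value with its adjusted form. The submitters' processing notes name Bowtie 0.12.2 and mm9, which is a mouse assembly although the gene IDs are human. The aligner, the counting tool, its strand setting and its annotation are therefore not given in the sources used here.

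Estimated counts were rounded and tested across the table with edgeR 4.0.16 in R 4.3.3 (TMM, filterByExpr with a minimum count of 10, robust glmQLFit, glmQLFTest, Benjamini-Hochberg over 16544 genes, threshold 0.05). The standard error is the log2 fold change, without its sign, over the square root of F. CPM use TMM-scaled library sizes. With 2 libraries against 2, the smallest p of an exact permutation test is 0.33, and none was run. Alternatives were other scalings and filters, DESeq2 1.42.0, limma 3.58.1 (voom, and log2(TPM + 1) or log2(TPM + 0.1)), stricter thresholds, the median of 50 neighbouring genes removed, and each library left out. The code was tested on simulated data.

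The 10 genes and the 16 lists were chosen with earlier results of these data known. All 162 list entries could be looked up, and lists share some genes. Named besides the 10 genes are the other actins and tropomyosins, up to 4 called genes per list with the smallest p, and the 5 genes nearest to ACTA2 among those of at least 5 CPM. Other list genes (MRTFA, MYOCD, RHOA, ROCK2, PPP1R12B, PPP1R14A, MYH11, SMTN, OXTR, GATA3, ESR1 and the markers at or near 0) and the overlapping genes were named after their values were seen. Some genes that the rule chose are not reported here.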

Additional observations from a re-analysis of the deposited data

How the results depend on the processing

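The calls of ACTA2, ACTG2, TAGLN, MYL9 and TPM2 held, with their sign, under every scaling, filter, test and left-out library and at an adjusted p under 0.01; their log2 fold changes ranged from 2.57 to 2.83, 1.79 to 1.97, 0.53 to 0.80, 0.39 to 0.51 and 0.29 to 0.41. At a log2 fold change of at least 1, 2 of the 10 genes were called, both higher. With a library left out, 5 to 7 were called, 5 to 6 higher and 0 to 1 lower. Without the median of neighbouring genes the value of TPM1 was -0.31, of SRF -0.27 and of CALD1 -0.02. Among genes that did not pass the test CNN1, SRF, TPM1, ACTG1, TPM3 and TPM4 kept their sign in these fits, and MYLK, CALD1 and ACTC1 did not. With a library left out MYLK ranged from -0.14 to 0.10, CALD1 from -0.035 to 0.19 and ACTC1 from -0.083 to 0.26. MYLK was 0.0086 with no filter and 0.013 in all 3 fits to TPM, and ACTC1 was -0.082, -0.12 and -0.082 in fits to log2(TPM + 1), log2(TPM + 0.1) and log2(TPM + 1) with no filter. The cause was not tested.

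The actin sum was called with library size alone (0.14, adjusted p = 0.044) and ranged from 0.088 to 0.20 with a library left out; the tropomyosin sum ranged from 0.0063 to 0.025 and was -0.018 with upper-quartile scaling. Of all tested genes 7856 were called (3894 higher, 3962 lower), against 4604 (2309 and 2295) with log2(TPM + 1), 4459 (2238 and 2221) with log2(TPM + 0.1), 2576 (1249 and 1327) with log2(TPM + 1) and no filter, 6121 with DESeq2, and 2299 (788 and 1511) at a log2 fold change of at least 1. With a library left out 5953 to 7858 were called, 2973 to 3982 higher and 2980 to 3876 lower. For 16 list counts, DESeq2 moved 2 by over 1.5 times, a left-out library 2 to 4, an adjusted p under 0.01 4, and log2(TPM + 1) 8. Nearly all list counts moved in 2 settings: 15 with log2(TPM + 1) and no filter, and 15 at a log2 fold change of at least 1. Of 971 refitted values of 61 other named genes, 864 kept their side of the threshold and sign, 89 lost a call, 13 gained one and 5 changed sign. No paired analysis was possible because the labels give the groups no shared replicate numbers. CNN1 rests on 12 to 48 counts in a library.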

Other observations

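Further genes overlap the 10 on the opposite strand. PCSK7, which shares 446 exonic bases with TAGLN, had a log2 fold change of 0.005 (edgeR adjusted p = 0.963). TPM1-AS shares 2070 exonic bases with TPM1 and had 63.08 to 121.31 estimated counts in a library, and MYLK-AS1 shares 133 with MYLK and had 41.28 to 80.38.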
